A study of Rattus norvegicus with 6 samples.

Results

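The genes of 8 acute phase proteins were followed across rat liver injured by ischemia reperfusion (IR). They were Hp (ENSRNOG00000014964), A2m (ENSRNOG00000028896), Lbp (ENSRNOG00000014532), Lcn2 (ENSRNOG00000013973), Orm1 (ENSRNOG00000007886), Crp (ENSRNOG00000000053), Cp (ENSRNOG00000011913) and C3 (ENSRNOG00000046834). They were listed by Ensembl ID as acute phase genes, with no measured value in the rule. The list was made with earlier results of these data known. All 8 were found among 26689 gene IDs and passed the expression filter with 9932 genes in all. The files hold IDs alone, so each name follows the list that defines the set. All 8 symbols stand in the RefSeq gene table used here, but that table pairs none of them with an Ensembl ID, so the pairs could not be checked against it.

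The acute phase response is the change in plasma proteins that the liver makes within hours to days of injury or infection. Interleukin 6, acting through STAT3, and interleukin 1 and tumor necrosis factor, acting through NF-kB and C/EBP factors, induce these genes mainly in hepatocytes. In the rat, alpha-2-macroglobulin (A2m) and alpha-1-acid glycoprotein (Orm1) are strongly inducible, and A2m is almost silent in healthy adults. Rat Crp, in contrast to the human gene, is made at a high basal level.

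The series asks whether acting on inflammation or on the narrowing of vessels changes the outcome of IR. Rats had IR by temporary clamping of the portal vein with etanercept and nitroglycerin (treated IR), IR with neither drug (IR), or were healthy and untreated (control), and the labels name no sham operation. The etanercept dose was 9 mg/kg, 18 to 16 h ahead of IR; this decoy receptor captures tumor necrosis factor. Nitroglycerin, which releases nitric oxide, ran as an infusion (6 µg/kg/min) that began before IR and went on through it. RNA was taken 1 day after IR, either from hepatocytes freshly isolated by collagenase perfusion or from whole liver, and the hepatocytes came from additional animals. The sources used here give no strain, age or sex. RNA of 3 animals was pooled into each library, so each of the 6 groups is 1 library, a difference between 2 libraries has no replicate check, and counting intervals cover counting error only.

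Reads in genes numbered from 1945331 in liver control to 7160610 in liver IR. Levels are in CPM, reads relative to the library's total after TMM scaling, which sets libraries to a common level for most genes, and they are not per length, so they compare libraries for a gene and not genes with each other. A count of 0 was read against a limit of 3 reads, which is 1.31 CPM in liver control and 0.58 CPM in hepatocyte IR. For a pair of libraries the rule of size calls a gene where the ratio reaches 2-fold and its 95% Clopper-Pearson counting interval leaves out equality. Markers of hepatocytes and of other liver cells could not be read, since the IDs carry no names, and in such bulk libraries fewer cells of a type and less RNA per cell cannot be told apart.

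In A2m, the hepatocyte libraries labelled IR and control stood in the opposite order to those of liver. A2m had 923 reads in the hepatocyte library labelled treated IR, 1 read in that labelled IR and 440 reads in that labelled control. In liver it had 968 reads in treated IR, 810 in IR and 0 in control. The libraries with at most 1 A2m read were thus hepatocyte IR and liver control. Each hepatocyte result below is given for the library as labelled. Whether labels, animals or cell isolation account for the opposite order was not tested.

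Hp encodes haptoglobin, which binds free hemoglobin. It was at 56804 CPM in hepatocyte treated IR, 9539 in hepatocyte IR and 46834 in hepatocyte control, and at 25886 CPM in liver treated IR, 47380 in liver IR and 8979 in liver control. The low libraries were again hepatocyte IR and liver control. Hp took 0.925% and 1.06% of all reads in these libraries and from 3.20% to 4.50% in the other 4.

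A2m encodes alpha-2-macroglobulin, a broad inhibitor of proteases. It was at 429 CPM in hepatocyte treated IR, 0.193 in hepatocyte IR and 137 in hepatocyte control. In liver it was at 129 CPM in treated IR, 120 in IR and 0 in control, where the limit of 3 reads is 1.31 CPM. Both libraries with next to no A2m are those in which Hp was lowest.

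Lbp encodes the protein that carries bacterial lipopolysaccharide to its receptor. Its levels were 1338 CPM in hepatocyte treated IR, 81.8 in hepatocyte IR and 1183 in hepatocyte control, and 766 CPM in liver treated IR, 641 in liver IR and 83.8 in liver control. The low values in hepatocyte IR (95% Poisson interval 74.2 to 90.0) and liver control (72.4 to 96.5) differed by less than counting error.

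Orm1 encodes alpha-1-acid glycoprotein, a plasma carrier of basic drugs. It was at 10968 CPM in hepatocyte treated IR, 484 in hepatocyte IR and 4125 in hepatocyte control, and at 4045 CPM in liver treated IR, 7769.7 in liver IR and 412 in liver control. The 4 libraries with 440 or more A2m reads all had at least 4045 CPM of Orm1.

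Lcn2 encodes lipocalin 2, which withholds iron from bacteria by binding their siderophores. It had few reads: 13 in hepatocyte treated IR, 0 in hepatocyte IR and 11 in hepatocyte control, and 25 in liver treated IR, 12 in liver IR and 0 in liver control. The libraries at 0 were the same pair as for low Hp, A2m, Lbp and Orm1. At this depth the liver control library could have held up to 1.31 CPM, beside 1.78 CPM in liver IR.

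The other 3 genes varied less. C-reactive protein (Crp), a pentraxin that binds phosphocholine, was at 10418 CPM in hepatocyte treated IR, 9166 in hepatocyte IR and 9310 in hepatocyte control, and at 4864, 7254 and 4813 CPM in liver treated IR, IR and control. Ceruloplasmin (Cp), the copper carrying ferroxidase of plasma, was at 1489, 1891 and 1704 CPM in hepatocyte treated IR, IR and control, and at 1483, 1386 and 827 CPM in liver treated IR, IR and control. Complement C3, the protein on which the complement pathways converge, was at 30416, 16810.1 and 27476 CPM in hepatocyte treated IR, IR and control, and at 18483, 22029 and 13944 CPM in liver treated IR, IR and control. C3 was lowest in the same pair of libraries as the 5 genes above, and Cp in liver control but not in hepatocyte IR. Crp was at 0.985 times (0.970 to 0.999) in hepatocyte IR vs control.

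**Figure D1:**
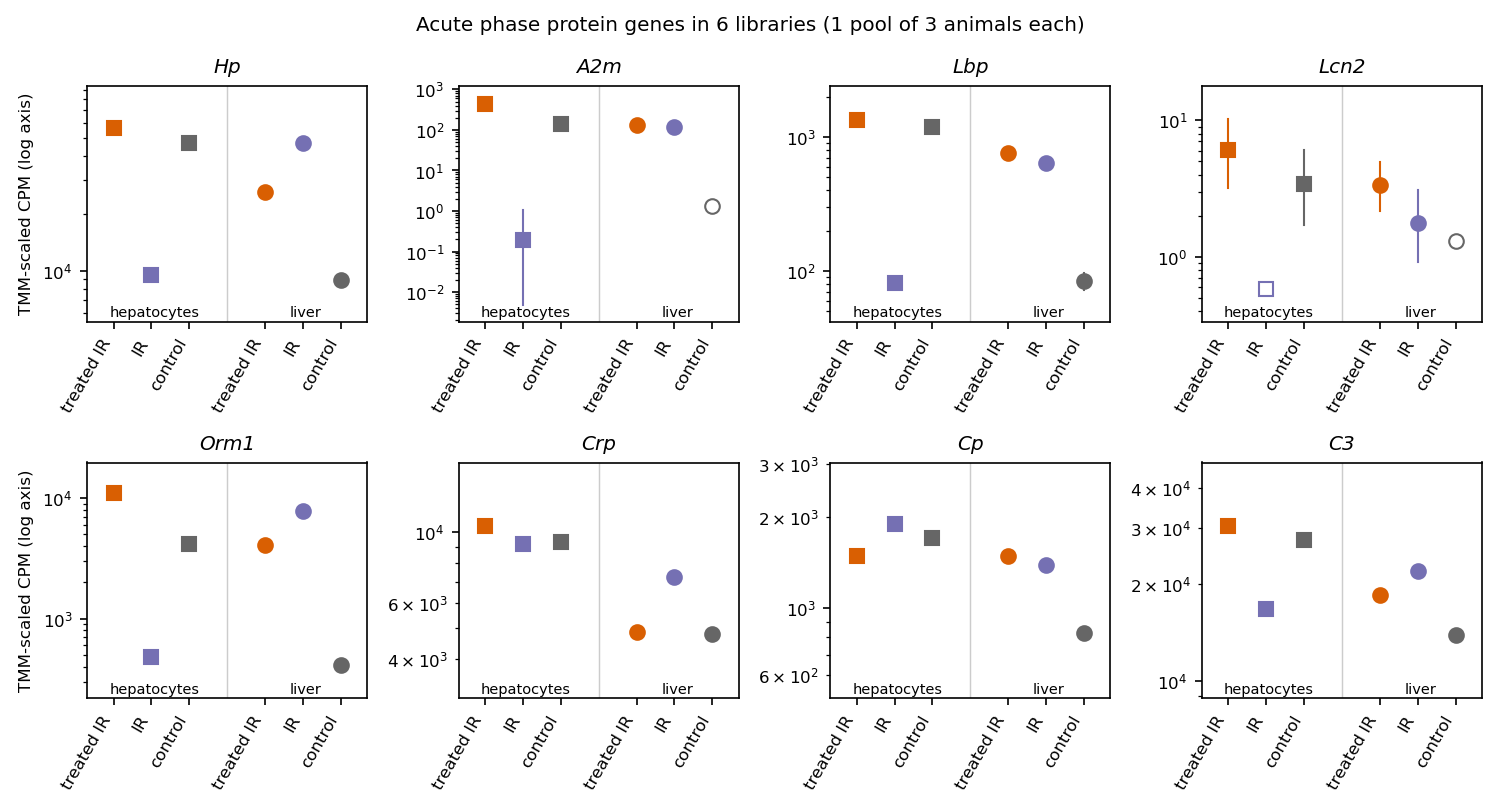
Level of each of the 8 genes in the 6 libraries, in TMM-scaled CPM on a log axis whose range differs between panels, with hepatocytes (squares) left of liver (circles) and treated IR, IR and control in each. Bars are 95% Poisson counting intervals, often smaller than the symbol, and open symbols are counts of 0 drawn at the limit of 3 reads. Hp, A2m, Lbp, Lcn2 and Orm1 are low in hepatocyte IR and liver control, while Crp, Cp and C3 stay within a narrow range.

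Together the 8 genes held 8.87% of reads in genes in hepatocyte treated IR (95% Wilson interval 8.84 to 8.90), 3.68% in hepatocyte IR (3.67 to 3.70) and 8.48% in hepatocyte control (8.45 to 8.51). In liver they held 6.88% in treated IR (6.86 to 6.90), 8.16% in IR (8.14 to 8.18) and 3.42% in control (3.40 to 3.45). These shares use no scaling between libraries. The difference lay mostly in Hp, which made up 50.8%, 25.1% and 51.6% of the set's reads in hepatocyte treated IR, IR and control, and 46.5%, 54.7% and 30.9% in liver treated IR, IR and control.

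**Figure D2:**
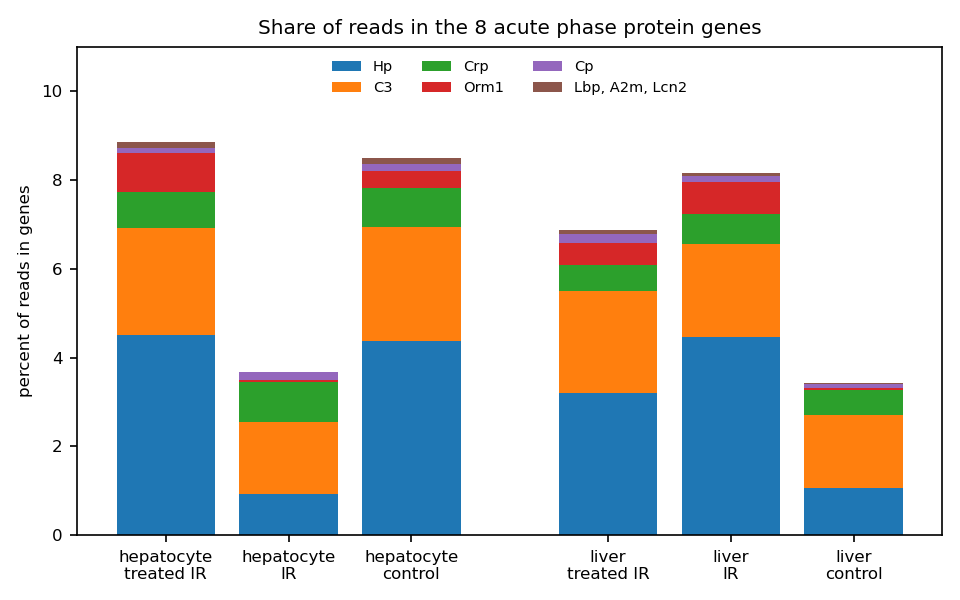
Percent of reads in genes held by the 8 genes, stacked by gene, in each library as labelled. The bars of hepatocyte IR and liver control stand at 3.68% and 3.42%, and the other 4 between 6.88% and 8.87%.

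Ratios within a library, in which no scaling enters, gave the same order. Per 1000 C3 reads there were 1868 Hp reads in hepatocyte treated IR, 567 in hepatocyte IR and 1705 in hepatocyte control, and 1401, 2151 and 644 in liver treated IR, IR and control. Orm1 had 361, 28.8 and 150.1 reads per 1000 C3 reads in hepatocyte treated IR, IR and control, and 219, 353 and 29.6 in liver treated IR, IR and control. A2m and Hp were not in a fixed ratio to each other. A2m had 7.54 and 2.92 reads per 1000 Hp reads in hepatocyte treated IR and control, and 4.99 and 2.53 in liver treated IR and IR.

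RefSeq promoters (GRCr8, 250 bases before the transcript start) were at hand for 5 of the genes, Crp, Lcn2, Orm1, Cp and C3, and the sources used here do not give the build behind the counts. They show which letters of known acute phase elements stand near genes that did and did not move together. Capitals mark matches, on either strand, to CTGGGA (the core of the STAT3 element of rat acute phase genes), TTCNNNGAA (a palindromic STAT motif), TTGCNNAA (C/EBP) or GGG and TTCC with 3 bases between (NF-kB). Shown first are Orm1 and Lcn2, which varied with A2m, then Cp and Crp, which did not.
Orm1, chr5:81788259-81788508, plus strand: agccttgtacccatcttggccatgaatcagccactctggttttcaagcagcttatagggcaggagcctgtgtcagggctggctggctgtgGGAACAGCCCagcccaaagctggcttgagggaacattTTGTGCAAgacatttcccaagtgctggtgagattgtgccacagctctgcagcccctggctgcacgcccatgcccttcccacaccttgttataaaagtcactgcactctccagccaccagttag
Lcn2, chr3:36081781-36082030, minus strand: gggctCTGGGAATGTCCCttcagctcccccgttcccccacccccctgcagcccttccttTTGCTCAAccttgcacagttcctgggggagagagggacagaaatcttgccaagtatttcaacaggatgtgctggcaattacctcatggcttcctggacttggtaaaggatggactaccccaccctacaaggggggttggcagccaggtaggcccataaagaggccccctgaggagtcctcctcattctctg
Cp, chr2:104368420-104368669, plus strand: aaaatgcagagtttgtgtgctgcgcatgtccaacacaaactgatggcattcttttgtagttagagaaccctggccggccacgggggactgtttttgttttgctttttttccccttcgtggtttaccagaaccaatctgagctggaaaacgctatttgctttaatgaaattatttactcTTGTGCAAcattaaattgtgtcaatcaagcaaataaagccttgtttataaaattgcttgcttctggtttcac
Crp, chr13:87693812-87694061, plus strand: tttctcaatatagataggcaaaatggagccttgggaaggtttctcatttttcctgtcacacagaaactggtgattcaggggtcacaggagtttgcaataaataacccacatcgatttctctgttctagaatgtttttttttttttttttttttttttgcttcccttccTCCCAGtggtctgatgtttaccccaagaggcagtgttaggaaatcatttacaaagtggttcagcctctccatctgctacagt

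Orm1 held TTGTGCAA, a C/EBP match, from base -123 before the start and GGAACAGCCC, an NF-kB match, from base -160. Lcn2 held TTGCTCAA from base -191, and its CTGGGA from base -245 overlapped an NF-kB match, GGAATGTCCC, from base -242. Cp also held TTGTGCAA, from base -72, and Crp held TCCCAG, the reverse of CTGGGA, from base -82. C3, not printed, held a C/EBP match from base -104 and CTGGGA from base -71. Of 33469 promoters of this length, 25.7% held CTGGGA, 7.67% TTCNNNGAA, 9.22% TTGCNNAA and 4.53% the NF-kB motif, and of the 5 genes 3, 0, 4 and 2 did, in that order. The NF-kB match stood in Lcn2 and Orm1 and in none of Cp, Crp and C3, though C3 too was lowest in hepatocyte IR and liver control. The C/EBP match stood in Lcn2, Orm1, Cp and C3, and CTGGGA in Lcn2, C3 and Crp. Promoters of Hp, A2m and Lbp, which also varied with these libraries, were not at hand. With 5 promoters this is a description of letters, not of bound sites.

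In whole liver, 4 of the 8 genes were higher in IR than in control by the rule of size and none was lower, where 3.76% of the 9932 genes were higher and 2.23% lower. Orm1 was 18.8-fold higher in liver IR (counting interval 17.7 to 20.1), and only 3 of 9932 genes had a larger log2 ratio. Lbp was 7.65-fold higher (6.62 to 8.89) and Hp 5.28-fold (5.20 to 5.35). A2m, at 810 reads in IR and 0 in control, was at least 91.7-fold higher against the limit of 3 reads, and 74.4-fold at the lower end of its counting interval. Lcn2, with 12 against 0 reads, was not called, since its counting interval began at 0.943 times and so held equality. Cp at 1.68-fold (1.59 to 1.76), C3 at 1.58-fold (1.56 to 1.60) and Crp at 1.51-fold (1.48 to 1.54) were under the rule. The liver IR library also had the highest share of alignments that were not unique, 60.1% against 46.3% in liver control, and the part of this in these ratios was not tested. The median log2 ratio, with a prior count of 2, was 2.36 for the 8 genes (1.57 with A2m and Lcn2 at their bounds) and 0.04 for all genes.

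In hepatocytes the same contrast ran the other way for Hp, A2m, Lbp, Lcn2 and Orm1, which are named together because of these values. It did so for C3 too, under the rule of size in both preparations. In the library labelled IR, 5 of the 8 were lower than in that labelled control and none was higher, where 9.53% of genes were higher and 6.93% lower. Lbp was at 0.0691 times its control level (0.0624 to 0.0765), Orm1 at 0.117 times (0.112 to 0.122) and Hp at 0.204 times (0.202 to 0.206). A2m, with 1 against 440 reads, was at 0.00142 times (3.58e-05 to 0.00793), a ratio that rests on a count under the limit of 3 reads. Its log2 ratio was the smallest of all 9932 genes with a prior count of 2. Lcn2, with 0 against 11 reads, was at least 5.89-fold lower against the limit of 3 reads (4.03-fold at the near end of its counting interval). C3 was at 0.612 times (0.606 to 0.618), while Crp at 0.985 times and Cp at 1.11 times were close to equality. The median log2 ratio was -2.66 for the 8 genes (-2.43 with Lcn2 at its bound) and 0.01 for all genes.

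Hp, A2m, Lbp and Orm1 were therefore called higher in liver IR and lower in hepatocyte IR than in the control of the same preparation. This pattern was shown by 74 of 9932 genes (0.745%), and the liver and hepatocyte libraries behind it share no animals. Whether the responses differ between the preparations cannot be tested with 1 library per group. The levels in hepatocyte IR and liver control lay side by side, at 9539 and 8979 CPM for Hp, 484 and 412 for Orm1 and 81.8 and 83.8 for Lbp.

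**Figure D3:**
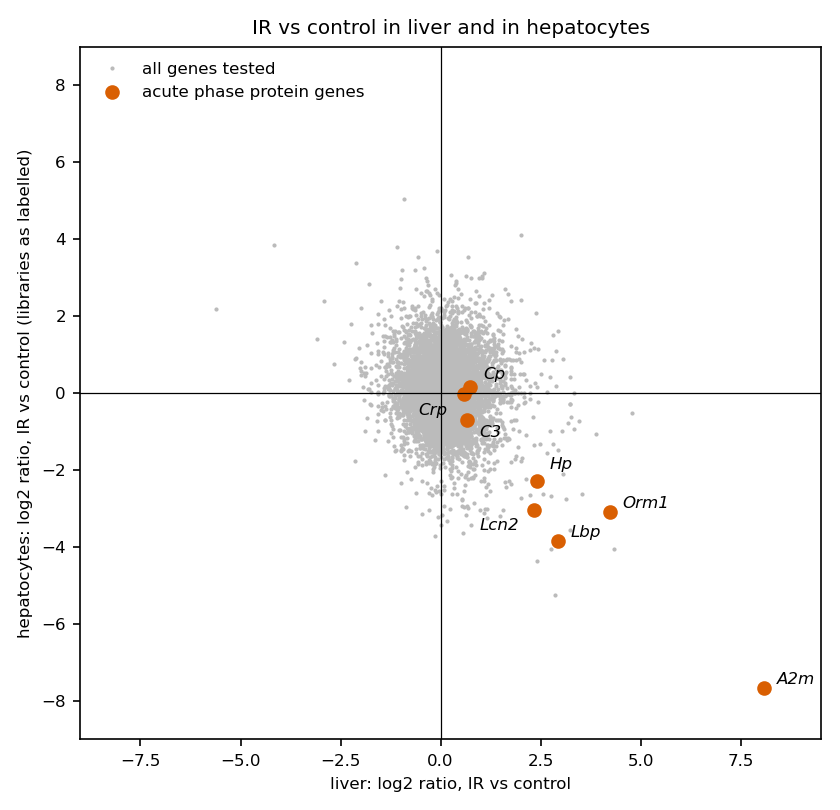
Log2 ratio of IR vs control in hepatocytes (vertical) against that in liver (horizontal) for all 9932 genes tested (grey) and the 8 acute phase genes (orange), with libraries as labelled and a prior count of 2. A2m, Orm1, Lbp, Lcn2 and Hp lie at the lower right, with liver ratios from 2.33 to 8.09 and hepatocyte ratios from -7.68 to -2.30, and Crp, Cp and C3 lie near the centre.

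The next question was what etanercept with nitroglycerin changed in these genes relative to IR without them. In liver 0 of the 8 passed the rule of size between treated IR and IR, where 1.82% of genes were higher and 0.946% lower. Orm1 was at 0.521 times its IR level (0.513 to 0.528), Hp at 0.546 times (0.543 to 0.549) and Crp at 0.671 times (0.662 to 0.680). A2m at 1.08 times (0.980 to 1.18), Lbp at 1.19 times (1.15 to 1.24) and Cp at 1.07 times (1.04 to 1.10) stood near equality, C3 was at 0.839 times (0.833 to 0.845), and Lcn2 with 25 against 12 reads was at 1.88 times (0.909 to 4.10). Scaling by library totals alone shifted log2 ratios by 0.39 here (0.35 for Lcn2 with the prior count, to 1.16 in place of 0.81): Orm1 then stood at -0.55 in place of -0.94, Hp at -0.48 in place of -0.87, C3 changed sign to 0.14 in place of -0.25, and Lcn2 passed the rule.

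In hepatocytes 5 of the 8 were higher in treated IR than in the library labelled IR, where 11.2% of genes were higher and 12.1% lower. Orm1 was 22.7-fold higher (21.7 to 23.6), Lbp 16.4-fold (14.8 to 18.2) and Hp 5.96-fold (5.89 to 6.02). A2m, with 923 against 1 read, was 2216-fold higher (397 to 87627), a ratio that rests on a count under the limit of 3 reads. Lcn2, with 13 against 0 reads, was at least 10.4-fold higher against that limit (7.32-fold at the lower end of its counting interval). C3 at 1.81 times (1.79 to 1.83), Crp at 1.14 times (1.12 to 1.15) and Cp at 0.788 times (0.757 to 0.820) were under the rule, and Crp changed sign with library totals alone. These ratios and those of IR vs control share the library labelled IR, which is low in both.

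The distance of treated IR from healthy animals was read from treated IR vs control. In liver 5 of the 8 genes were higher in treated IR, where 4.81% of genes were higher and 2.39% lower. Orm1 was 9.81-fold higher (9.19 to 10.5), Lbp 9.14-fold (7.91 to 10.6) and Hp 2.88-fold (2.84 to 2.92), while A2m, with 968 against 0 reads, was at least 98.7-fold and Lcn2, with 25 against 0, at least 2.55-fold higher against the limit of 3 reads (80.1-fold and 1.92-fold at the lower ends of their counting intervals). Cp at 1.79 times (1.71 to 1.88), C3 at 1.33 times (1.31 to 1.34) and Crp at 1.01 times (0.989 to 1.03) were not called. The control library is shared with IR vs control in liver.

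In hepatocytes, where neither library is the low one labelled IR, 2 of the 8 were higher in treated IR than in control, against 4.23% of all genes higher and 4.09% lower. A2m was 3.14-fold higher (2.80 to 3.52) and Orm1 2.66-fold (2.60 to 2.72). Hp at 1.21 times (1.20 to 1.22), Lbp at 1.13 times (1.08 to 1.19), Crp at 1.12 times (1.10 to 1.14), C3 at 1.11 times (1.10 to 1.12) and Cp at 0.874 times (0.837 to 0.913) stood near equality, and Lcn2 with 13 against 11 reads was at 1.77 times (0.731 to 4.36). With library totals alone, a shift of -0.24, Lbp, Crp and C3 changed sign.

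**Figure D4:**
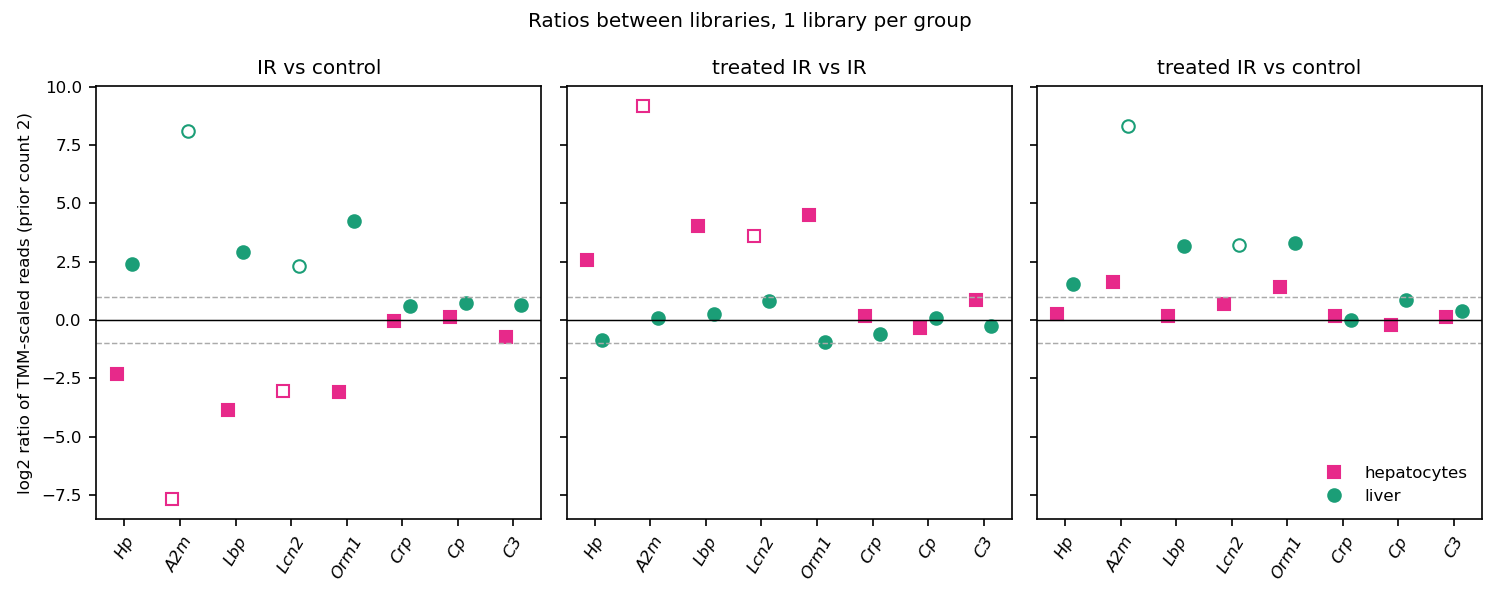
Log2 ratio of TMM-scaled reads (prior count 2) for each gene in IR vs control, treated IR vs IR and treated IR vs control, in hepatocytes (squares) and liver (circles). Dashed lines mark 2-fold, and open symbols have at most 3 reads in 1 of the libraries. Hp, A2m, Lbp, Lcn2 and Orm1 point in opposite directions between the preparations in IR vs control, though Lcn2 was not called in liver. In treated IR vs IR they pass the 2-fold lines in hepatocytes only, and in liver range from -0.94 for Orm1 to 0.81 for Lcn2.

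A change common to hepatocytes and liver was sought with edgeR's quasi-likelihood test and Benjamini-Hochberg adjustment. The model of preparation plus condition leaves 2 residual degrees of freedom from 6 libraries. In it, responses of opposite direction in the preparations cancel in the fitted ratio and add to its spread. For Hp, A2m, Lbp and Orm1 in IR vs control, it therefore cannot decide whether a preparation changed. In IR vs control, 0 of the 8 reached the adjusted p threshold of 0.05, as did 0% of all 9932 genes; 0 of the 8 had an unadjusted p under 0.05 by edgeR, DESeq2 or limma-voom, where edgeR gave 332 of 9932 genes. The fitted log2 ratios ran from -0.79 to 1.52 around a median of 0.35, with adjusted p-values of at least 0.996. These values depended on single libraries, with medians from -2.36 without liver IR to 2.03 without hepatocyte control. Each fit with a library left out had 1 library in a condition, so only its log2 ratios are given here. Without hepatocyte IR, where liver IR was the only IR library, Orm1 stood at 3.66 and A2m at 3.75. Without liver IR instead, A2m, Lbp and Orm1 stood in the other direction, at -8.63, -3.29 and -2.70. Without hepatocyte control, A2m stood at 11.24, where liver control, with 0 A2m reads, was the only control library.

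For treated IR vs IR, 0 of the 8 genes and 0% of all genes were called by edgeR. Lcn2 stood at 2.10 on the log2 scale (SE 1.07, edgeR adjusted p = 0.981), and at 0.62 without hepatocyte IR. None of the 8 had an unadjusted p under 0.05 by edgeR, where 297 of 9932 genes did, or by DESeq2. By limma-voom 2 did, Lcn2 and A2m, but the share of all genes under 0.05 by limma-voom was not counted. After adjustment limma-voom called 0 of 9932 genes. Without liver IR, where hepatocyte IR was the only IR library, A2m stood at 11.91, Lcn2 at 8.0, Orm1 at 5.04, Lbp at 4.95 and Hp at 2.91. In that fit Cp, Crp and C3 stood at -0.07, 0.14 and 0.92. Without hepatocyte IR, the median of the 8 turned to -0.41 in place of 0.32.

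For treated IR vs control, all 8 log2 ratios were above 0, from 0.09 to 2.38, and 0 of 8 passed, as did 0% of all genes. A2m stood at 2.38 (SE 1.59) and Orm1 at 1.89 (SE 1.13), both with an edgeR adjusted p of 1.0; 0 of the 8 had an unadjusted p under 0.05 by edgeR, DESeq2 or limma-voom, where edgeR gave 230 of 9932 genes. Single libraries moved the direction. Without liver control, Hp, Lbp, Crp, Cp and C3 were below 0, the median was -0.06 in place of 0.80, and A2m stood at 0.73. Without hepatocyte treated IR, Hp and Crp were below 0, and without liver treated IR, Cp was. Without hepatocyte IR, A2m stood at 3.25 and Orm1 at 2.32, and without liver IR they stood at 3.28 and 2.34. Without liver treated IR, A2m stood at 2.59. Without hepatocyte control, A2m stood at 15.19 and Lbp at 4.41, where liver control, with 0 A2m reads, was the only control library.

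Hepatocytes were compared with whole liver in the same model with condition as a term. All 8 genes had a log2 ratio above 0, from 0.36 for Lcn2 to 1.33 for A2m around a median of 0.60, and 0 of 8 passed, where 0.433% of genes were higher and 4.90% lower in hepatocytes. The direction was not stable: without liver control the median was -0.59 and without hepatocyte control -0.60, with Hp, A2m, Lbp, Lcn2 and Orm1 below 0 in both, and library totals alone gave a median of 0.20 with Lcn2 at -0.03. By limma-voom A2m was at -0.68. Crp, with the smallest spread relative to its mean in hepatocytes, averaged 9632 ± 685 CPM in hepatocytes and 5644 ± 1395 CPM in liver (SD, n = 3 conditions each). Its fitted log2 difference was 0.80 (SE 0.52) with an edgeR adjusted p of 0.829. By DESeq2's Wald test Crp had an unadjusted p of 0.0107 and an adjusted p of 0.182. It was the only 1 of the 8 with an unadjusted p under 0.05 by DESeq2, where the share of all genes was not counted. By edgeR 0 of the 8 had an unadjusted p under 0.05, where 998 of 9932 genes did, and by limma-voom 0. Without hepatocyte IR, A2m, Orm1 and Lbp stood at 3.30, 2.33 and 2.24, and without liver IR at 3.35, 2.38 and 2.29. In these fits with a library left out, 1 residual degree of freedom remained and a condition held by 1 library was assumed to vary like the others.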

How the data were processed

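RNA of 6 pools, selected for mRNA with beads per the labels' protocols, was sequenced on an Ion Torrent Proton instrument. Raw read counts per Ensembl gene ID are what the authors deposited. The submitters' processing notes name TopHat2 (2.0.13) and HTSeq (0.6.1). The genome build, the annotation release and whether strand was used: not given in the sources used here. Overlapping or near-identical genes could therefore lose reads. Summary lines that name no gene were left out: reads outside genes made up 6.23% to 8.34% and ambiguous reads 0.358% to 0.798% of uniquely aligned reads, and alignments that were not unique made up 60.1% of alignments in liver IR and 41.1% to 46.3% in the other 5 libraries.

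Groups came from sample titles. Genes were filtered with filterByExpr (minimum count 10, by condition), which kept 9932 of 26689, and scaled by TMM (factors 0.794 to 1.24). Pair ratios carry 95% Clopper-Pearson intervals, log2 ratios a prior count of 2, and pairs have no p-value. Models were fitted over all genes with edgeR 4.0.16 (common biological coefficient of variation 0.288), Benjamini-Hochberg adjustment and a threshold of 0.05; SEs are the log2 ratio over the root of the F statistic. DESeq2 1.42.0 and limma-voom (limma 3.58.1, R 4.3.3) were alternatives. Scripts were tested on simulated data. The members, lists and rules were chosen with earlier results of these data known. Named genes are the 8 members, each given in every library. Lists of other acute phase genes, regulators and cell markers, and the search for genes of like pattern, needed symbols and could not be used, since 0 IDs matched the reference table. Pools are separate animals; p-values measure only the spread between these libraries.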

Additional observations from a re-analysis of the deposited data

Results flagged for a closer look

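For 4 genes the contrast of IR with control was past the rule of size in opposite directions in the preparations. The log2 ratios in hepatocytes and in liver were -2.30 and 2.40 for Hp, -7.68 and 8.09 for A2m, -3.85 and 2.93 for Lbp, and -3.09 and 4.23 for Orm1. The A2m values rest on 1 read in hepatocyte IR and 0 reads in liver control and depend on the prior count. With 1 library in each group, no test of the difference could be made, so the difference was not tested, nor was its cause.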

How the results depend on the processing

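Among pair comparisons, the number of the 8 genes past the rule of size stayed within 1.5 times its value under every alternative run, with 2 exceptions: library totals alone gave 1 in place of 0 for treated IR vs IR in liver, and a 4-fold rule gave 0 in place of 2 for treated IR vs control in hepatocytes. A minimum count of 50 and thinning to 1945331 reads dropped Lcn2. No called log2 ratio of the 8 genes changed sign. In the models the genes called numbered 0 to 3 for hepatocytes vs liver, 0 to 3 for IR vs control, 0 to 5 for treated IR vs IR and 0 to 2 for treated IR vs control when each library was left out, and 0 under the other alternatives, except 1 (A2m) for treated IR vs control with no filter. The fits with a library left out had 1 library in a condition and 1 residual degree of freedom, so no conclusion is drawn from their calls. Wherever members were called in these fits, genes outside the set were called too. With no filter, 14 of 16548 genes (0.0846%) were called for treated IR vs control. No paired analysis was possible because each group holds 1 library.

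The background moved more. Under library totals the higher and lower genes numbered 132 and 575 for liver IR vs control (373 and 221 with TMM, or 18.7% in place of 62.8% of calls higher), 613 and 26 for liver treated IR vs IR (181 and 94; 95.9% in place of 65.8%), 647 and 1921 for hepatocyte treated IR vs IR (1113 and 1198; 25.2% in place of 48.2%), and 187 and 811 for hepatocyte treated IR vs control (420 and 406; 18.7% in place of 50.8%). With a minimum count of 50 the higher and lower genes numbered 155 and 99 (liver IR vs control), 34 and 24 (liver treated IR vs IR), 171 and 121 in place of 478 and 237 (liver treated IR vs control), 528 and 351 in place of 947 and 688 (hepatocyte IR vs control), 652 and 761 (hepatocyte treated IR vs IR) and 221 and 247 (hepatocyte treated IR vs control). With a 4-fold rule they numbered 99 and 30, 30 and 7, 143 and 27, 186 and 152, 272 and 319, and 55 and 92, in the same order, and with no filter 332 and 172 for liver treated IR vs IR. For hepatocytes vs liver a minimum count of 50 called 158 genes in place of 530. Depth limits Lcn2, with at most 25 reads, and A2m where it had 0 or 1.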
